A study of Bos taurus with 12 samples.

Results

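Loci at CpG islands on cattle autosomes were taken from 2 tables in which the authors compared sperm DNA methylation between bulls. The loci were the rows on chromosomes 1 to 29 whose closest annotated feature was a CpG island at a listed distance of 0. This rule took 11 of the 13502 autosomal CpG sites and 2 of the 6580 autosomal tiles of 500 bp, out of 17730 sites and 7290 tiles listed in all. These 13 loci overlap their islands, but they are only a small part of the loci inside islands. In 100% of autosomal rows the listed distance was the gap from the locus's start to the nearer edge of the feature, so a distance of 0 means that the locus starts on the first or last base of an island. A locus deep inside an island has a large distance, up to 2047 bp for sites. By their coordinates, 249 autosomal sites in 67 islands and 1113 autosomal tiles in 395 islands overlapped the island that was their closest feature. The 11 sites and 2 tiles were 4.42% and 0.180% of these. Both readings are described, the loci on the edge first, and "inside" below means inside by coordinates.

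The study profiled whole-genome DNA methylation by enzymatic methylation sequencing, in which enzymes instead of bisulfite convert unmethylated cytosines, and its labels set bulls apart by how fertile their daughters were. The labels name 6 sperm samples of low daughter fertility and 6 of high daughter fertility, all from Bos taurus, with no age, breed, batch or pairing, and sperm purity could not be checked in these tables. Only the authors' difference in percentage points, p-value and q-value are given for each locus, with no value per sample, so the depth is unknown and no spread between bulls can be set beside a difference. Which fertility group was subtracted from the other is not given in the sources used here, so differences are called positive or negative as listed. A locus is called below when the authors' q-value is under 0.05 and the difference is at least 10 points in either direction.

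CpG islands are stretches rich in cytosine and guanine in which CpG dinucleotides have been kept, while most of a mammalian genome has lost them. Many islands cover the promoters of housekeeping and developmental genes and carry little methylation in most cells, sperm included, whereas the sperm genome between islands is largely methylated. A minority of islands is methylated in the male germ line, among them some that control imprinted genes. Each island in the deposited annotation carries a ratio of observed to expected CpG, which is high where CpG has been kept.

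None of the 11 edge sites was called, and their differences were small. The share called among all other autosomal sites was 4.48%, and 6.06% of those sites had a q-value under 0.05, which no edge site had. At such shares, no call among 11 sites says little about edge sites. Of the 11, 5 sat on the first base of an island, all on the plus strand, and 6 on the last base, all on the minus strand. They fell in 10 islands of 431 to 2071 bp on 8 chromosomes. In all, 5 differences were negative, 3 were positive and 3 were listed as exactly 0, with a median of 0 points, against -0.71 points for all other autosomal sites. The order of these medians rests on chromosome 21, since the median was -1.03 points over the 8 edge sites elsewhere, and it was -0.86 points with 1 edge site per island.

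The largest edge difference was on chromosome 25. The last base of an island at chr25:35479726-35480972 (ARS-UCD1.2) stood at -5.26 points (p = 0.0123, q = 0.110) according to the authors' deposited table. It was the only edge site with an unadjusted p under 0.05. The other edge site of chromosome 25, at position 27006539, stood at -4.79 points (q = 0.587) per the authors' deposited table. In that island the authors' deposited table listed 6 further sites, from -19.4 to 0.13 points, and the lowest of them, at position 27006533, was called (q = 0.0167). Sites 6 bp apart at the same island edge thus stood on either side of the threshold.

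The remaining edge sites lay within 3 points of 0. The first base of an island on chromosome 1, at position 625572, was listed at -2.84 points (q = 0.381) according to the authors' deposited table, and 8 other sites of that island lay between -2.89 and 0.74 points. On chromosome 9 the first base at position 87209208, in an island overlapping an intron of UL16-binding protein 3-like, named after ligands of a natural killer cell receptor, stood at -2.06 points (q = 0.473) per the authors' deposited table. On chromosome 18 the last base at position 49777451 stood at 1.23 points (q = 0.424) according to the authors' deposited table. Differences of exactly 0 were listed per the authors' deposited table at position 55539275 of chromosome 5, position 86301910 of chromosome 10 and position 21600009 of chromosome 26. The island of chromosome 10 overlaps an intron of mutL homolog 3, a DNA mismatch repair protein that also acts in meiotic crossing over.

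Both edges of 1 island on chromosome 21 were among the members. Its first base, at position 33020005, stood at 1.40 points (q = 0.468) and its last, at position 33021148, at 1.58 points (q = 0.477) according to the authors' deposited table. The other 43 sites of that island had a median of -1.77 points and reached -8.59. The minus-strand partner of the first base was listed at -2.48 points (q = 0.216) per the authors' deposited table, opposite in sign to the plus strand. The first base of the neighbouring island, at position 33023989, stood at -1.72 points (q = 0.485) according to the authors' deposited table, with its minus-strand partner at -3.12 points (q = 0.390).

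**Figure D1:**
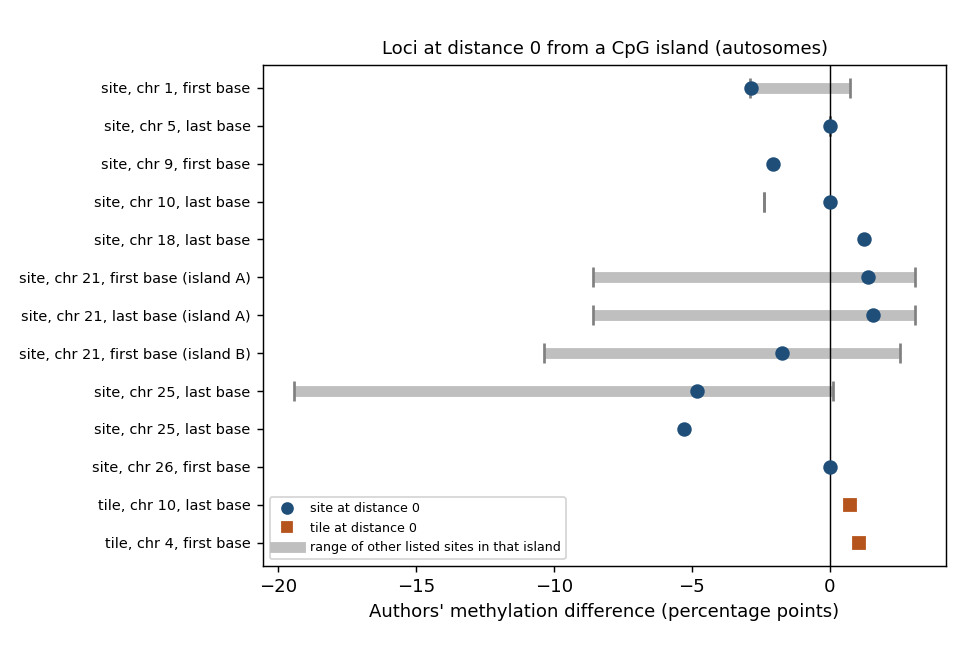
Difference in percentage points (x axis) for each of the 11 sites (circles) and 2 tiles (squares) at distance 0 from an autosomal CpG island, 1 row per locus. Grey bars, with ticks at their ends, span the other listed sites of the same island. Edge sites lie between -5.26 and 1.58 points, while other sites of the first chromosome 25 island reach -19.4.

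The 2 edge tiles both had small positive differences with a q-value under 0.05, and neither was called. The share called among all other autosomal tiles was 2.34%, so no call among 2 tiles says little. Of those other tiles 71.0% had a q-value under 0.05, so a small q was usual in this table. The tile at chr4:116983401-116983900 starts on the first base of an island of 1514 bp and lies inside it over its whole 500 bp. In the authors' deposited table it stood at 1.05 points (q = 4.63e-08). The tile at chr10:29979301-29979800 starts on the last base of an island of 2060 bp and shares 1 bp with it, so nearly all of it is outside. It stood at 0.75 points (q = 0.0403) per the authors' deposited table. No other tile was listed inside either island with that island as its closest feature, and no such site inside the chromosome 10 island. No sites were listed for chromosome 4 at all.

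Loci inside islands by coordinates had smaller differences than other loci, most plainly in the tiles. The median absolute difference was 0.470 points over the 1113 inside tiles, against 1.79 points over the 5467 other autosomal tiles. Under 1 point of difference was listed for 74.3% of inside tiles, against 35.4% of the others. The median signed difference was -0.11 points inside, against -1.22 points elsewhere, and 57.4% of inside tiles were negative, against 72.9% of the others. Inside tiles had the smaller median absolute difference on 24 of the 26 chromosomes with tiles, the exceptions being chromosomes 19 and 21. Neighbouring tiles overlap by up to 400 bp and share CpGs, so none of these counts was tested. The other loci include 98 sites and 396 tiles that overlap a listed island but have another feature as the closest.

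Among the sites the same contrast was smaller. The median absolute difference was 1.58 points over the 249 inside sites, against 2.79 points over the 13253 others. A difference of exactly 0 was listed for 42 inside sites (16.9%), against 538 others (4.06%). Differences of at least 5 points made up 16.1% of inside sites, of which 33 were negative and 7 positive, against 30.0% of the others. Of the 249 inside sites 92 lay on chromosome 21, 90 of them in 3 islands. The share of negative differences was 55.4% inside and 55.5% elsewhere, but it was 82.2% in those 3 islands (74 of 90 sites) and 40.3% in the other 159 inside sites (64 negative, 54 positive and 41 at 0). Without the 3 islands the median of inside sites was 0 points.

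Differences in tiles were mostly larger farther from the closest island. The median absolute difference was 0.823 points for tiles within 500 bp outside an island, 1.31 points at 500 to 2000 bp, 2.16 points at 2000 to 4000 bp and 2.88 points at 4000 to 10000 bp. It was 2.34 points at 10000 to 100000 bp and 4.04 points beyond. The share of negative tiles was 57.4% inside, 62.4% within 500 bp outside and 92.6% beyond 100000 bp. Far tiles rest on few places, since the 284 tiles beyond 100000 bp had only 10 closest islands. With each island given 1 vote, the median absolute difference was 0.436 points inside, and 0.613 and 0.877 points in the classes up to 2000 bp. In the classes beyond it was 1.89, 2.75, 1.86 and 2.18 points in order of distance, with no steady rise. Sites showed a step instead of a slope, with 1.58 points inside, 1.41 points within 500 bp outside and 2.50 to 3.10 points in every class farther away. These classes hold only loci whose closest feature is an island.

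**Figure D2:**
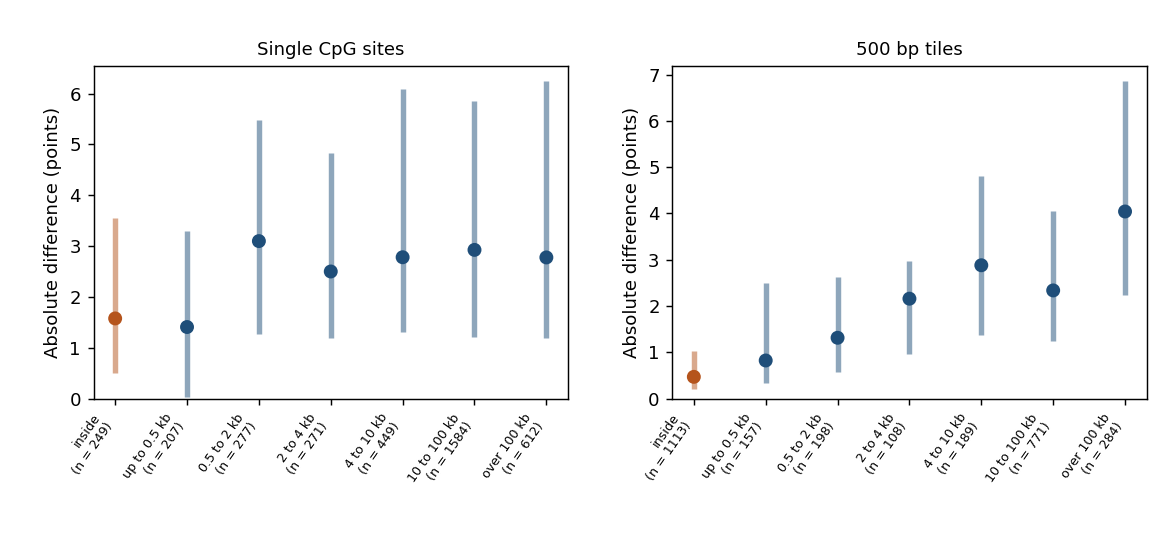
Absolute methylation difference in percentage points (y axis) by distance from the closest CpG island (x axis), for sites (left) and tiles (right) with an island as closest feature. Points are medians, bars span the 25th to 75th percentiles, and the class inside islands is in orange. Inside tiles have a median of 0.470 points, the lowest of the 7 classes.

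The differences of tiles varied little with how far they reached into the island. The median absolute difference was 0.499 points for the 351 tiles wholly inside, and 0.426 points for the 131 tiles with 101 to 200 bp of overlap. Tiles sharing at most 100 bp with the island stood at 0.681 points. Among islands with tiles, the ratio of observed to expected CpG ran over a range of 0.61 to 1.35 and the length over 401 to 25867 bp. Across these 395 islands the absolute median difference had a Spearman correlation of -0.114 with the CpG ratio and of 0.00676 with length, both weak. All 4 islands with a called tile were among the 202 with a ratio of at most 0.86, and so were 7 of the 8 islands whose median reached 5 points, while 193 islands had a higher ratio.

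Calls inside islands sat in few islands and were nearly all negative, while calls elsewhere were also mostly negative. The share called was below that of other loci for tiles but not for sites. Of the 249 inside sites 12 were called (4.82%, against 4.47% of the other autosomal sites), all of them negative, in 3 islands. Calls are not strictly comparable between chromosomes, as adjustment differed between them. Position 33028914 of chromosome 21 was called at -10.4 points (q = 0.0414) per the authors' deposited table. Before adjustment, positions 8886 and 27006494 of chromosome 25 ranked ahead of it, at -11.9 and -11.5 points, but were not called. The same held for position 23213401 of chromosome 8, at 10.4 points. Adjustment over all listed loci also gave 12 calls, all negative, not necessarily the same sites. A q-value under 0.05 was listed for 18 (7.23%) inside, against 6.04% elsewhere. Negative calls made up 3.04% of the other sites and positive calls 1.43%. Of the 1113 inside tiles 9 were called (0.809%, against 2.65% of the other autosomal tiles), 8 negative and 1 positive, in 4 islands. Negative calls made up 2.47% of the other tiles and positive calls 0.183%. The share with a q-value under 0.05 was 59.2% inside, against 73.4% elsewhere.

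Of the 12 called sites 10 lay in 1 island, at chr21:33028755-33029874. Without that island the share called was 0.851% (2 of 235 sites). No cluster was taken out of the other autosomal sites, so their share is no comparator here. All 14 sites listed in that island were negative, from -22.6 to -4.00 points, with a median of -12.2. The called ones lay between 159 and 220 bp from its start. The lowest, at position 33028975 on the plus strand, stood at -22.6 points (q = 0.000209) according to the authors' deposited table. Position 33028954 followed at -19.9 points (q = 7.44e-06) per the authors' deposited table. Its minus-strand partner, at position 33028955, was listed at -11.5 points (q = 0.00404) there. Both strands were called in 3 of the 4 CpGs with both strands listed and a call on either. The nearest listed feature was an exon 4114 bp away, with no gene named for it.

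The tiles of this island stood at the same level. All 5 were called, at -11.1 to -11.7 points. Without this island 4 inside tiles were called (0.361%), a share again not comparable with that of the other autosomal tiles. The authors' deposited table gave 4 of the island's 5 tiles the same difference of -11.1 points, the same p and the same q (5.10e-45). These 4 start at positions 33028501 to 33028801 and are not separate measurements. The fifth, at chr21:33028901-33029400, stood at -11.7 points (q = 1.00e-45) according to the authors' deposited table. At this island both tables gave calls of the same sign. That happened at none of the other 28 islands listed in both, counting only loci with the island as closest feature.

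A pair of neighbouring islands held most of the other sites of chromosome 21. The 44 sites of chr21:33020005-33021148 had a median of -1.73 points and its 7 tiles, all negative, a median of -1.95 points, with no call. Its lowest site, at position 33021063, stood at -8.59 points (q = 0.000231) per the authors' deposited table, short of 10 points. The 32 sites of chr21:33023989-33026059 had a median of -0.89 points with no call, while its 15 tiles, all negative, had a median of -5.28 points. Inside that same island lie loci that the authors' annotation ties to an exon, which was the closer feature. Of these, 14 sites between positions 33024655 and 33024745 were called, at -23.2 to -12.4 points, and 5 tiles, at -17.0 to -12.2 points, in the authors' deposited table. Counted over every locus that overlaps a listed island, whatever its closest feature, 27 of 347 sites were called (7.78%), all negative, and 14 of 1509 tiles (0.928%), 13 of them negative. Of these, 25 sites and 10 tiles were on chromosome 21, and 2 sites and 4 tiles elsewhere.

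**Figure D3:**
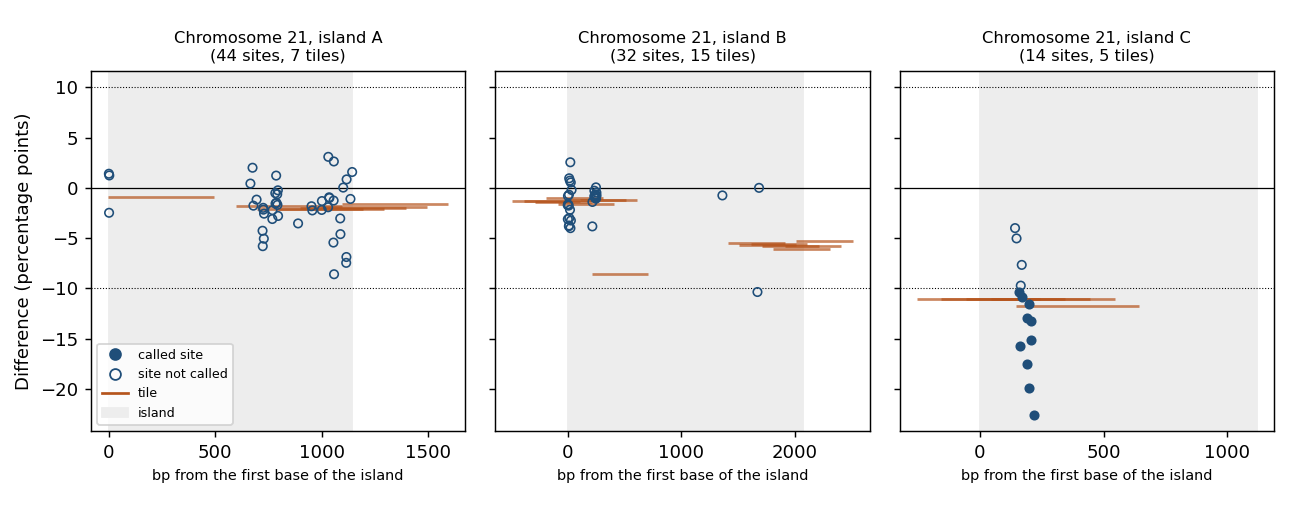
Difference in percentage points (y axis) against position from the first base (x axis) for the 3 chromosome 21 islands with the most sites, for loci with the island as closest feature. Filled circles are called sites, open circles other sites, orange lines tiles drawn over their 500 bp, grey the island, and dotted lines 10 points in either direction. A runs from position 33020005, B from 33023989 and C from 33028755; the 10 called sites are all in C.

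The other called sites were single. On chromosome 25 the site at position 27006533, on the minus strand and 6 bp from the island's end, stood at -19.4 points (q = 0.0167) according to the authors' deposited table. A 5′ untranslated region of F-box and leucine rich repeat protein 19 lies 2367 bp from this island. Its mouse counterpart binds unmethylated CpG islands through a CXXC zinc finger. The 7 sites of this island had a median of -4.79 points, and its 4 tiles, none called, a median of -2.51 points. On chromosome 29 the site at position 5566871 stood at -15.1 points (q = 0.00610) per the authors' deposited table, in an island of 439 bp whose 9 sites had a median of -1.72 points. The 8 tiles of that island lay between -1.90 and -0.24 points, so the single site was far from the level of its tiles.

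The lowest tiles inside islands were on chromosome 9. In an island at chr9:34370342-34371082, with a CpG ratio of 0.61, the lowest among islands with tiles, 2 overlapping tiles were listed, and both were called. They stood at -18.9 points (q = 3.92e-37) from position 34370501 and at -16.4 points (q = 1.10e-26) from position 34370401 according to the authors' deposited table. On chromosome 25 the tile at position 35734001 was called at -10.8 points (q = 2.41e-135) per the authors' deposited table. It lies in an island of 9235 bp whose 5 tiles were all negative, with a median of -8.02 points. No site with either island as its closest feature was listed inside it, and no gene feature within 10 kb.

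The only positive call inside an island was on chromosome 19. The tile at chr19:13425201-13425700, which shares 350 bp with an island of 1802 bp, stood at 11.2 points (q = 1.42e-30) according to the authors' deposited table. The 5 tiles of this island were all positive, from 5.79 to 11.2 points, and its 2 sites stood at 9.32 and 9.36 points. The next tile back, from position 13425101, was just under the threshold at 9.95 points per the authors' deposited table. A further island close to the threshold, at chr6:108807763-108810098, had 4 negative tiles down to -9.70 points according to the authors' deposited table. Among sites, 5 inside islands differed by at least 10 points without a q-value under 0.05, and 1 of them was positive. That site, at position 23213401 of chromosome 8, stood at 10.4 points (q = 0.0571) per the authors' deposited table.

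The islands with the most tiles had one sign throughout in 5 of 6 cases, with no call among tiles that had the island as closest feature. One sign was common, in 109 of the 167 islands with 3 or more tiles, and neighbouring tiles share CpGs. The island of 25867 bp at the very start of chromosome 19 had 26 tiles, all negative, with a median of -2.73 points, and the 13 tiles of chr25:12174-12985, also all negative, had a median of -3.56 points. The 14 tiles of chr18:59225165-59228125 were all negative, with a median of -0.21 points, and the 12 tiles of chr5:26561719-26562626 all positive, with a median of 0.19 points. At chr20:115662-116810 the 12 tiles were 10 negative and 2 positive. Chromosome starts stood apart: inside tiles within the first 500 kb of a chromosome had a median of -1.54 points (120 tiles), against -0.08 points for the 993 farther along. Tiles outside islands in those first 500 kb had a median of -1.71 points.

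Islands that overlap the start of a gene had small differences. Of the 395 islands with tiles, 35 overlapped a listed 5′ untranslated region, and 26 of these had a positive and 9 a negative median. The median over the 35 islands was 0.17 points, with a range of -1.40 to 1.49, and 32 were under 1 point (91.4%), against 80.8% of all 395 islands, so small medians were usual throughout. Over all 395 islands 189 medians were positive and 206 negative, with a median of -0.03 points. The 244 islands with no listed feature within 10 kb had 106 positive and 138 negative medians and ranged from -17.7 to 8.73 points. Of the 4 islands with a called inside tile 3 were among these 244, which were most of the 395. The fourth was the chromosome 21 island 4114 bp from an exon. Loci listed as closer to a gene feature than to the island are left out of these counts and medians. Calls in islands that overlap a gene could thus be missed, and the groups cannot be compared for calls. Their medians and ranges are not strictly comparable either, also because the groups differ in size. The deposited tables list 1 feature per locus, so an island may be near a gene that is not listed, and the counts of signs were not tested.

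The genes named next were chosen after their values were seen, as the ends of this group. The island at sterol O-acyltransferase 1, which makes cholesterol esters, had the highest median, 1.49 points over 3 tiles, with a top tile at 1.66 points (q = 4.06e-06) according to the authors' deposited table. Charged multivesicular body protein 2B, a part of the machinery that pinches off membranes, followed with a median of 1.18 points over 2 tiles. Single tiles stood at 0.95 points at thioredoxin domain containing 17 (q = 0.000462), 0.94 points at F-box protein 8 (q = 1.23e-06) and 0.76 points at structural maintenance of chromosomes 4 (q = 1.89e-06), a condensin subunit, in the authors' deposited table. The lowest median was -1.40 points at cyclase associated actin cytoskeleton regulatory protein 1, an actin regulator, over 2 tiles. F-box protein 3 stood at -0.95 points (q = 6.55e-05) per the authors' deposited table.

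Another 84 islands overlapped an exon, intron or other gene feature, with medians from -6.63 to 2.39 points. None of their tiles with the island as closest feature was called. The examples were again chosen after their values were seen. The lowest medians, -6.63 points over 7 tiles and -5.28 points over 15 tiles, were in islands of chromosome 21 starting at positions 33001944 and 33023989, whose exons carry no gene name. Loci closer to an exon were called inside both islands, 1 site in the first and 14 sites and 5 tiles in the second. On chromosomes 3 and 4, islands at 2 genes named ubiquitin carboxyl-terminal hydrolase 17-like protein 6, of a multicopy family of deubiquitinating enzymes, had medians of -2.21 points over 4 tiles and -2.85 points over 11 tiles. Copies of this family may share reads, so these values are uncertain. The island at CCR4-NOT transcription complex subunit 6 like, a subunit of the complex that shortens messenger RNA tails, had a median of -1.83 points over 6 tiles. On the positive side PR/SET domain 6 stood at a median of 1.71 points over 2 tiles and cornichon family AMPA receptor auxiliary protein 4, of a family of cargo receptors in the secretory pathway, at 1.40 points over 3 tiles.

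**Figure D4:**
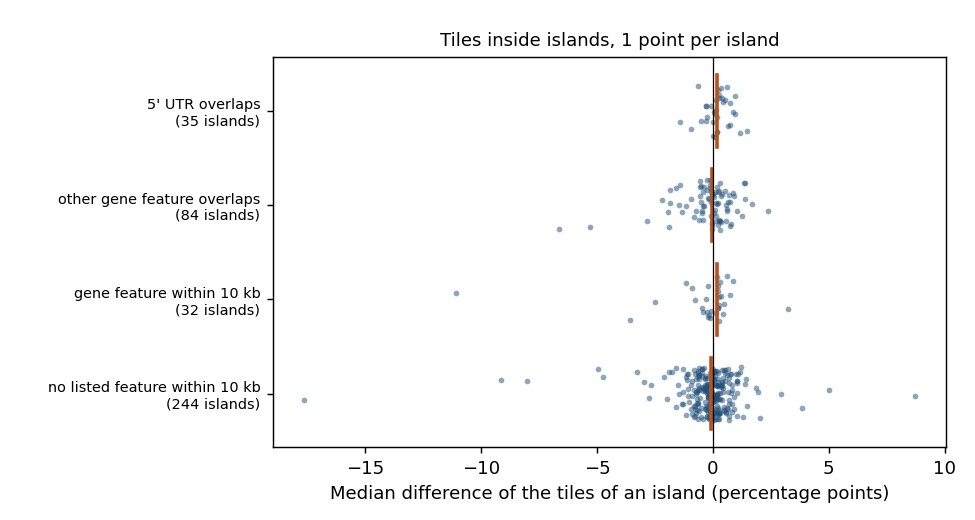
Median difference in percentage points of the tiles inside each island (x axis), 1 point per island, by what the deposited tables list at the island; orange bars are group medians and vertical scatter is for display. The 35 islands overlapping a 5′ untranslated region run from -1.40 to 1.49 points, with a median of 0.17. The 244 with no listed feature within 10 kb run from -17.7 to 8.73, with a median of -0.06. The groups differ in size, so their ranges are not directly comparable.

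Of 4 gene lists, only the developmental transcription factors had an inside island within 10 kb of a listed feature, and none of those islands was called. With 4 of all 395 tile islands called, no call among so few says nothing about these genes. Features of 13 of the 112 genes of this list were listed on autosomes, and 4 genes had such an island, all in the tile table. The 2 tiles near iroquois homeobox 1, a factor of limb, heart and neural patterning, stood at 3.20 and 3.25 points, the higher with q = 6.86e-09 according to the authors' deposited table. The 2 tiles at engrailed homeobox 1, which patterns the midbrain and limb, stood at -0.70 points (q = 0.0133) and 0.41 points per the authors' deposited table. NK2 homeobox 1, of thyroid and lung development, had 1 tile at 0.31 points (q = 0.127) and orthodenticle homeobox 2, of forebrain development, 1 at 0.21 points (q = 0.262) according to the authors' deposited table. For 27 imprinted, 27 germline and 15 DNA methylation genes, 3, 2 and 4 genes had a listed feature, and none had an inside island within 10 kb.

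Where both tables listed loci inside the same island, the medians had the same sign in 15 of the 21 islands with neither at 0. The tables shared 29 islands, 43.3% of the 67 with sites and 7.34% of the 395 with tiles. Tile islands on chromosomes 2, 3 and 4 could not be shared, as no sites were listed there. In 8 of the 29 shared islands the site median was exactly 0. Across the 29 islands the Spearman correlation of the medians was 0.52, a description, since both tables come from the same libraries and tiles contain the sites. The widest disagreement was an island on chromosome 8 starting at position 23212151, with a median of 8.62 points over 2 sites and -0.58 points in its single tile.

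**Figure D5:**
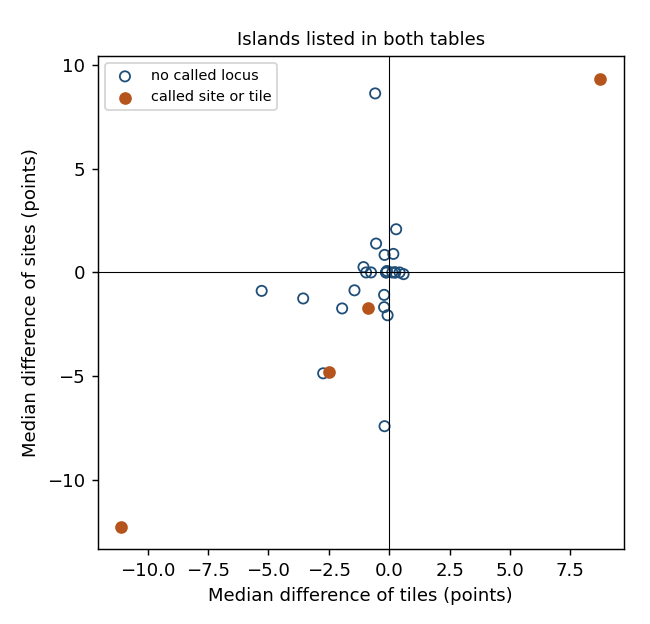
Median difference of sites (y axis) against median difference of tiles (x axis), both in percentage points, for the 29 islands with loci inside in both tables. Orange marks the 4 islands with a called site or tile that had the island as closest feature. The chromosome 21 island at -12.2 and -11.1 points and the chromosome 19 island at 9.34 and 8.73 points lie at the 2 ends.

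The strands of 1 CpG inside an island had the same sign in most cases. Both strands were listed for 35 inside CpGs, and of the 34 with differences other than 0 on both strands 25 had the same sign (73.5%), against 61.3% of 445 CpGs outside. The median gap between the strands was 1.96 points inside and 3.88 points outside. All but 1 of the 35 lay in the 3 islands of chromosome 21, so this describes those islands.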

How the data were processed

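Sperm DNA of 12 samples (6 of low and 6 of high daughter fertility) was sequenced after enzymatic conversion. Trimmomatic, Bismark, methylKit and the build ARS-UCD1.2 are named in the submitters' processing notes, without versions or settings. The p-values, q-values and signed methylation differences in percentage points were computed by the authors and deposited as 1 comparison per locus, under methylKit's column names per the file headers. The annotation source and any filter are not given in the sources used here. The authors' q-value lay below p for 26.5% of inside sites and 70.9% of inside tiles, so q is not a Benjamini-Hochberg value over the listed loci. In addition, 68 inside tiles had q under 0.05 with p of 0.05 or more. The adjustment differed between chromosomes. Sites at exactly 0 points, identical before adjustment, had q of 0.814 on chromosome 5, 0.864 on chromosome 26 and 0.875 on chromosome 10 in the authors' deposited table. Calls on different chromosomes are thus not strictly comparable. The sources used here do not say if spread among bulls entered the authors' test. Without values per sample no new test between groups was run, and depth and precision are unknown.

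No sites were listed for chromosomes 2, 3, 4, 12, 23 and 27, and no tiles for chromosomes 12, 23 and 27. Overlap was computed from the deposited coordinates (at least 1 bp) with pandas 2.3.3 and numpy 2.4.6. Helper functions were tested on simulated data. Genes come from features listed on any autosomal row, within 10 kb of an island; exons given with a transcript ID only count as features but have no gene name. Named islands are the largest differences of each sign among called loci, the islands with most loci or calls, those in both tables with a call, and those near listed genes; others are marked as chosen afterwards. Loci, lists and rules were chosen with earlier results of these data known. No sequence is shown, as no genome of this build was used here.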

Additional observations from a re-analysis of the deposited data

How the results depend on the processing

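No paired analysis was possible because no values per sample were given, and for the same reason no bull was left out in turn. For edge loci, no call appeared at q below 0.01, at 5 or 20 points, with p also under 0.05, without the chromosome with most loci, after Benjamini-Hochberg adjustment over all listed loci, with 1 locus per island or after merging. With no minimum difference both edge tiles were called (2, or 100%). Taking loci inside by coordinates, chosen after seeing the data, gave 12 called sites and 9 called tiles and turned the tile median from positive to -0.11 points. No edge locus was called, so no island was left out for its calls, and no edge site lay farther inside.

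All other alternatives concern inside loci and were added after seeing the data. Called sites numbered 1 (0.402%) at 20 points, 3 with 1 locus per island, taken as the one with the largest absolute difference, which by itself raises the median absolute difference (2.63 points), 2 without the island with the most calls (0.851%), without chromosome 21 (1.27%) or without its 3 islands (1.26%), and 27 in any listed island. Called tiles numbered 46 (4.13%) at 5 points, 0 (0%) at 20 points and 659 (59.2%) with no minimum. They numbered 4 with 1 tile per island, picked the same way (median -0.0421, absolute 0.589 points), 4 after merging (median -0.0437, absolute 0.400 points), 4 without the island with the most calls (0.361%) or without the 3 islands of chromosome 21 (0.368%), 5 wholly inside the island and 14 in any listed island. In total 141 of the 175 alternative values stayed within 1.5 times a count or the 95% interval of a share or median. Part of this tally was fixed in advance, since a median cannot move where only the call rule changed. Likewise, 0 calls cannot fall under a stricter rule. The intervals treat overlapping tiles and neighbouring sites as separate, so the tally is no measure of stability. The cause of the other moves was not tested beyond the change in loci counted. At unknown depth, a difference of 0 in few reads cannot be told from one in many.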
